A study of Mus musculus with 72 samples.

Results

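T (Brachyury), Eomes, Mixl1, Gsc and Foxa2 are 5 transcription factors that mark mesendoderm and the primitive streak, and they were followed during neural differentiation of mouse embryonic stem cells that had or lacked Nup133. They were chosen by name, with earlier results of these data known, and are 5 of the 45321 genes in the deposited count tables. Each gene was read through its transcript with the highest total count over the 72 libraries. All 5 passed the filter on low counts and were among the 18273 genes tested.

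The primitive streak is the site where epiblast cells turn into mesoderm and endoderm in the gastrulating embryo. Its start depends on Nodal and Wnt signals, which switch on the T-box factors T and Eomes and the homeodomain factors Mixl1 and Gsc. Foxa2, a forkhead factor, follows in anterior streak, endoderm, node and notochord, and later in the floor plate of the neural tube. Stem cells grown in serum and LIF are a mixture in which a minority of cells carries transcripts of this programme. Nup133 is a scaffold subunit of the nuclear pore in the Y-complex.

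Controls were the line HM1 (Nup133+/+, 40 chromosomes, XY), in 2 biological replicates, together with 1A4, a line derived from a blastocyst (Nup133+/+ and Sox1gfp/+, 40 chromosomes, XY). Lines 14 and 19 are Nup133-/- derivatives of HM1 edited with CRISPR/Cas9 (XY with 40 chromosomes, for line 19 given as likely). Line 319 is blastocyst-derived and Nup133merm/merm, carries Sox1gfp/+ and has 42 chromosomes, being XX with an extra 8 and an extra 12. Day 0 cells had been grown on feeder fibroblasts in serum and LIF and were taken after the feeders were removed by plating. For day 2, LIF was withdrawn and the medium was N2B27, and for day 3 the cells were given all-trans retinoic acid at 1 µM over the last day. There were thus 6 groups, with 3 samples in each. Apart from the HM1 replicates, for which the labels name no separate cultures, each series is 1 line. The p-values of the main fit rest on the spread of all 18 samples around their group and background means. That spread pools the days of each series and the HM1 replicates, and the fit treats samples of the same series as independent.

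The day 2 sample of line 19 was the shallowest with 16.5 M gene counts, and the deepest sample held 54.4 M. Line 19 at day 2 stood apart on the second principal component (17.6% of the variance), and results that change without it are named below. Line 319 at day 2 stood apart on the first, which runs from day 0 to day 3 and holds 47.2% of the variance, at -25.2 on the day 0 side of the other day 2 samples (6.34 to 16.8). Nup133 was between 179.5 and 323 CPM (counts per 1 M counts, scaled with TMM) in the controls and between 14.3 and 37.1 CPM in the knockout samples over the 3 days. The summed level of 8 pluripotency markers was from 4088 to 4496 CPM in the day 0 controls and from 4627 to 5842 CPM in the day 0 knockout lines. None of the 8 was called between these groups by edgeR or DESeq2, and none had an unadjusted p below 0.05. The sum was between 279 and 621 CPM over all samples at day 3. In these bulk samples, fewer cells of a type and less RNA per cell cannot be told apart.

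At day 0, 3 of the 5 genes were lower in the knockout lines at an adjusted p below 0.05 (edgeR quasi-likelihood test), namely T, Mixl1 and Foxa2, against 0.788% of all tested genes called lower and 0.854% called in either direction. At day 2 only T was called (1.6% of all genes called), and at day 3 none of the 5 was (5.2% of all genes called). At an unadjusted p below 0.05, T and Eomes passed at day 3, and DESeq2 called 0 of the 5 there. Over the 5 genes the median log2 fold change went from -1.99 (day 0) through -0.78 (day 2) to 0.76 (day 3), beside 0.01, 0.02 and 0.02 over all genes tested. The control and knockout ranges did not overlap for 4 of the 5 genes at day 0, each lower in the knockout, which was so for 9.7% of all genes. At day 2 this held for T and Foxa2 (11.7% of all genes were separated in that direction). At day 3 it held for T, lower in the knockout (17.6%), and for Eomes and Gsc, higher in the knockout (17.6%).

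**Figure D1:**
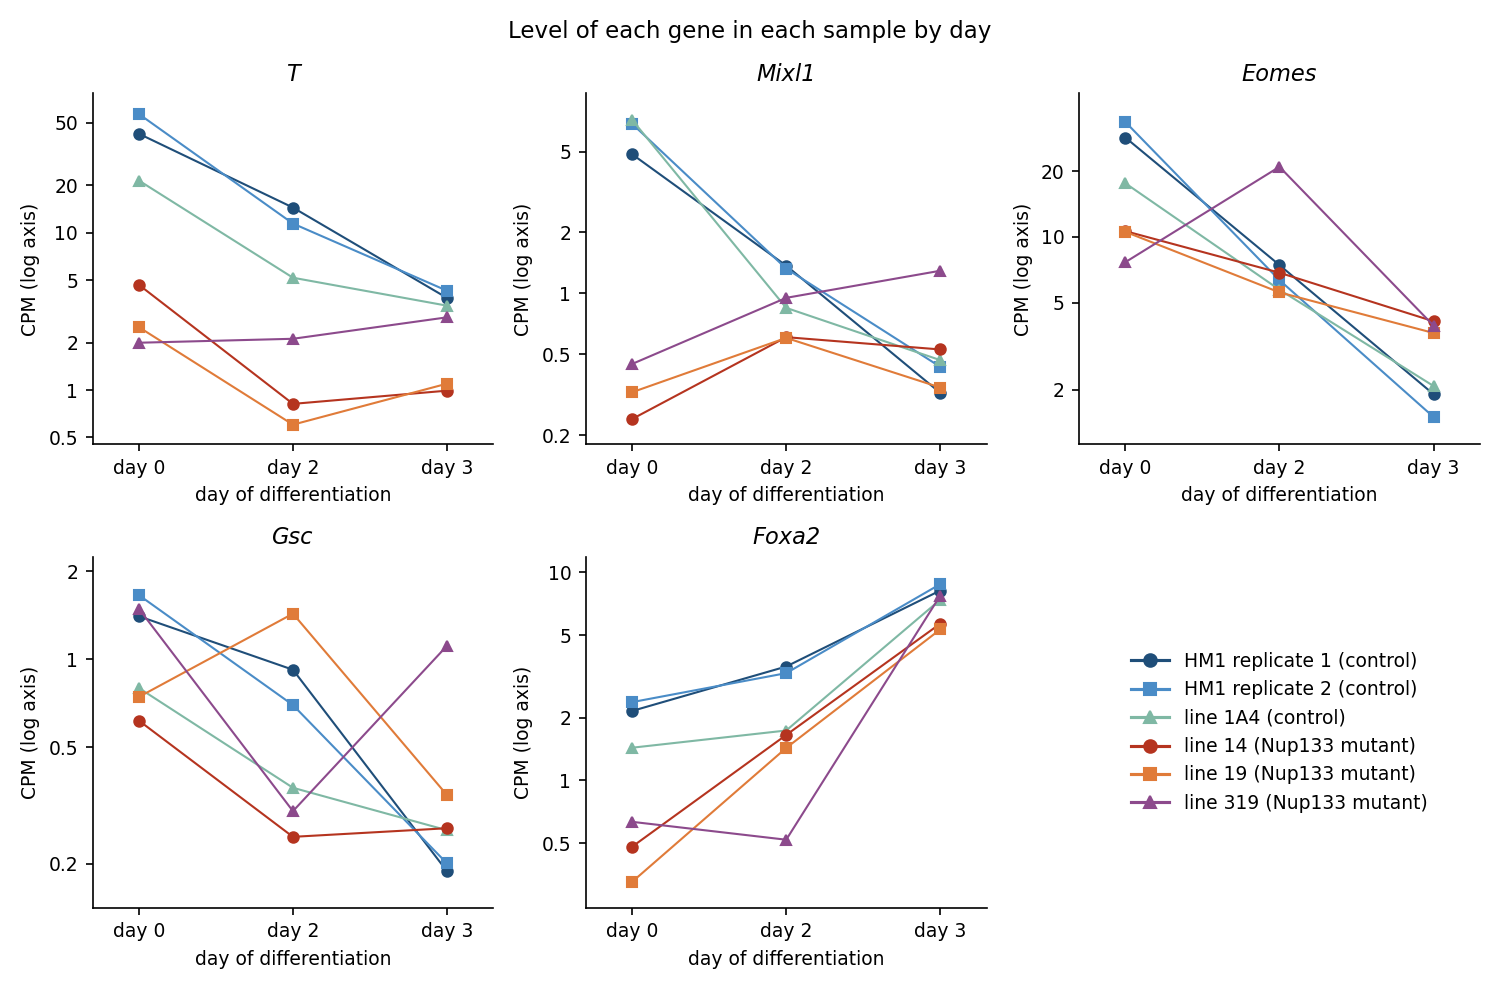
CPM on a log axis against day for the 5 genes, 1 line per cell series, 3 control series (blue and green) and 3 Nup133 knockout series (red, orange and purple). The control series start high and fall for T, Mixl1 and Eomes, while Mixl1 in the knockout series starts between 0.240 and 0.449 CPM and is higher at day 2 than at day 0 in all 3. These Mixl1 values rest on 7 to 22 counts per sample at day 0 and 8 to 32 at day 2.

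T is the T-box factor after which the family is named and the classical marker of the streak and the notochord. The gene lies on chromosome 17 at 8434423 to 8442496 on the plus strand (GRCm38), and the transcript used, ENSMUST00000074667, has 8 exons and 2046 bases. The 250 bases before its RefSeq start (chr17:8434173-8434422, GRCm38.p6, plus strand) are shown because the gene is a textbook target of Wnt signalling. Capitals mark the 1 match to the motifs searched, a TCF/LEF word (CTTTGAA, here on the reverse strand) that 5.14% of 32851 promoters of 300 bases hold on either strand.
T upstream: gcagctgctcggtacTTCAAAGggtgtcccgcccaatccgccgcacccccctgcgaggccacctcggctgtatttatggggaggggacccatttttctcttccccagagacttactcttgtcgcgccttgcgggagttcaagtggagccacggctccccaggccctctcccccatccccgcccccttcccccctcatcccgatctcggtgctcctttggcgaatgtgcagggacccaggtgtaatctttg

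The day 0 controls held 42.5 and 56.7 CPM of T in the HM1 replicates and 21.4 CPM in line 1A4. The day 0 knockout lines held 4.66 CPM (line 14), 2.51 CPM (line 19) and 2.00 CPM (line 319). Every control sample was thus above every knockout sample. The log2 fold change was -3.72 ± 0.55 (SE, adjusted p 0.0041, edgeR), from a mean of 40.2 ± 17.7 CPM to one of 3.06 ± 1.41 CPM (SD, n = 3). All 3 lines were lower than the controls of their own background, by -3.38 (line 14), -4.26 (line 19) and -3.39 (line 319) on the log2 scale. Without HM1 replicate 2 the value was -3.39 and the adjusted p 0.092 (edgeR).

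At day 2, T was at 14.4 and 11.4 CPM in the HM1 replicates and 5.17 CPM in line 1A4. The knockout lines held 0.817 CPM (line 14), 0.603 CPM (line 19) and 2.12 CPM (line 319). The ranges were again apart, and line 319 stood highest among the knockout lines. The log2 fold change was -3.08 ± 0.58 (adjusted p 0.015, edgeR). That call was lost without HM1 replicate 1 (-2.80, adjusted p 0.16), HM1 replicate 2 (-3.04, adjusted p 0.14) or line 19 (-2.75, adjusted p 0.052), and in a fit of the day 2 samples alone (-3.15, adjusted p 0.34).

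Day 3 levels of T were 3.85, 4.27 and 3.44 CPM in the controls and 0.992, 1.10 and 2.90 CPM in lines 14, 19 and 319. The groups were still apart, but the log2 fold change of -1.19 ± 0.54 was not called (adjusted p 0.21, edgeR). Line 319 lay near its control, at -0.24, where lines 14 and 19 lay at -1.98 and -1.84. Without line 319 the value was -2.22 and it was called (adjusted p 0.0035, edgeR).

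In the controls T fell by 1.96 on the log2 scale in the first step, to day 2 (adjusted p 0.0073, edgeR; 0.10 without HM1 replicate 2). The next step of -1.41 missed the threshold (adjusted p 0.062) but was called with the cell series as a replicate block (-1.30, adjusted p 0.048, edgeR), and without line 1A4 (adjusted p 0.047), line 19 (0.046), line 319 (0.0026) or line 19 at day 2 (0.042). In the knockout lines the first step was -1.32 (adjusted p 0.084), and it was called in the fit with the replicate block (-1.55, adjusted p 0.027) and in those without line 319 (-2.23, adjusted p 7.7e-04) or line 1A4 (-1.55, adjusted p 0.0225). Line 319 differed from lines 14 and 19 in that step, with a change of 0.08 against -2.44 and -1.97. The second step in the knockout lines was 0.48 (adjusted p 0.54).

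Eomes, the second T-box gene, is needed for definitive endoderm and for the exit of mesoderm cells from the streak. It lies on chromosome 9 at 118478212 to 118486132 on the plus strand, and the transcript used, ENSMUST00000035020, has 6 exons and 3560 bases. An antisense gene, Gm33460, overlaps 118 of its exon bases, and reads from it would be included if the counting ignored strand. Upstream of its RefSeq start (chr9:118477939-118478188, GRCm38.p6, plus strand) the only motif found was the paired-type homeodomain palindrome (TAAT and ATTA with 3 bases between them), in capitals. It is shown because Mixl1 belongs to the paired class of homeodomain factors, and 0.487% of the 32851 promoters hold such a match.
Eomes upstream: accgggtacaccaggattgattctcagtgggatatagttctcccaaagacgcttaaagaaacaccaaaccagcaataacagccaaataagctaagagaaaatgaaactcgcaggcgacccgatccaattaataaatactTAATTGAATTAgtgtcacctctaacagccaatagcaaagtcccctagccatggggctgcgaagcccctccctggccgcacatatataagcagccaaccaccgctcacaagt

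At day 0 Eomes was at 28.5 and 33.5 CPM in the HM1 replicates and 17.6 CPM in line 1A4. Lines 14 and 19 both held 10.6 CPM, and line 319 held 7.67 CPM. The knockout samples were all lower, but the log2 fold change of -1.47 ± 0.38 was not called (adjusted p 0.10, edgeR). It was called in 7 of 15 alternative fits, among them those without line 319 (-1.39, adjusted p 0.011), without line 1A4 (-1.81, adjusted p 0.048) and without line 19 at day 2 (-1.47, adjusted p 0.029), and with the replicate block as a random term (-1.47, adjusted p 0.046, limma).

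At day 2 the controls held 7.44, 6.35 and 5.74 CPM of Eomes and lines 14 and 19 held 6.86 and 5.58 CPM. Line 319 was the exception with 20.9 CPM, above its own day 0 level. In the same sample the summed level of 8 signals that act upstream of the streak was 730.5 CPM, where the other day 2 samples had 151 to 261 CPM. Its largest parts were Tdgf1 (324 CPM), Nodal (185 CPM) and Fgf4 (171.5 CPM), and the day 0 samples of both genotypes had sums of 782 to 952 CPM. The summed pluripotency markers were also highest in line 319 among the day 2 samples, at 1498 CPM (1199 to 1375 CPM in the others). The part of these genes in the level of Eomes was not tested. The groups overlapped, and the log2 fold change was 0.74 ± 0.39 (adjusted p 0.30, edgeR), or -0.15 without line 319. The knockout effect differed between the backgrounds, being larger in line 319 than in lines 14 and 19 by 2.00 ± 0.34 on the log2 scale (adjusted p 0.040, edgeR), with 0.547% of all genes called in that comparison and no other member among them. None of the 5 was called in it at day 0 (0.969% of all genes) or day 3 (0.0219%), by edgeR or by DESeq2, and at an unadjusted p below 0.05 only Foxa2 passed at day 0 and T at day 3. That comparison rests on 1 line against 1 line in the blastocyst-derived background. The same contrast for T at day 2 was 2.81 (adjusted p 0.061, edgeR). Without line 14 or 19 it was 3.13 and 2.70, in fits whose spread came from the HM1 replicates alone. The Eomes call was lost without HM1 replicate 1 (1.89, adjusted p 0.60) or HM1 replicate 2 (2.11, adjusted p 0.71).

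Day 3 levels of Eomes were 1.91, 1.503 and 2.08 CPM in the controls and 4.12, 3.64 and 3.93 CPM in lines 14, 19 and 319. Every knockout sample was now above every control sample, by a log2 fold change of 1.09 ± 0.40 (adjusted p 0.12, edgeR). This was called without line 319 (0.97, adjusted p 0.028), without line 19 at day 2 (1.08, adjusted p 0.047) and in the fit of day 3 alone (1.08, adjusted p 0.023). The genotype difference moved from day 0 to day 3 by 2.56 ± 0.55 on the log2 scale (adjusted p 0.056, edgeR; 0.0050 without line 319 and 0.018 without line 19 at day 2).

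In the controls Eomes fell at both steps, by 2.04 (adjusted p 8.9e-04, edgeR) and by 1.83 (adjusted p 0.0042). The second call was lost without HM1 replicate 1 or 2 (adjusted p 0.071 and 0.070). In the knockout lines the first step was 0.17 (adjusted p 0.76), made up of -0.63 in line 14, -0.91 in line 19 and 1.44 in line 319. Without line 319 it was -0.74 and called (adjusted p 0.030, edgeR). The second step there fell by 1.48 (adjusted p 0.0100) and was called in all 16 alternatives. Both steps of a series use the same day 2 sample, so they are not independent of each other.

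Mixl1 is a paired-type homeodomain factor of the streak that acts in mesoderm and endoderm formation. Its place is chromosome 1, 180693043 to 180697034, minus strand, with 2 exons and 2294 bases in its only transcript in the files, ENSMUST00000027778. Its day 0 level was 4.86, 6.87 and 7.18 CPM in HM1 replicate 1, HM1 replicate 2 and line 1A4. The knockout lines were at 0.240 CPM (line 14), 0.325 CPM (line 19) and 0.449 CPM (line 319), which rests on 7 to 22 counts per sample. Every control sample was above every knockout sample, and the knockout lines lay close to each other.

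The day 0 log2 fold change of Mixl1 was -4.21 ± 0.40 (adjusted p 7.5e-05, edgeR), the largest of the 5 genes and called in all 15 alternative fits, with values from -4.48 to -4.04. Lines 14, 19 and 319 lay at -4.32, -3.95 and -3.85 against their own controls. At day 2 the controls held 1.37, 1.33 and 0.849 CPM and the knockout lines 0.608, 0.603 and 0.951 CPM. These ranges overlapped because line 319 was above line 1A4, while it was below both HM1 replicates. The log2 fold change was then -0.78 ± 0.38 (adjusted p 0.26). By day 3 the controls had 0.323, 0.434 and 0.469 CPM and the knockout lines 0.529, 0.343 and 1.29 CPM, with a log2 fold change of 0.76 ± 0.39 (adjusted p 0.28).

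The genotype difference of Mixl1 thus changed with time, as the interaction test shows. From day 0 to day 3 it moved by 4.97 ± 0.55 on the log2 scale (adjusted p 5.2e-04, edgeR), with 0.427% of all genes called in that contrast and Mixl1 the only member among them. It was called in all 16 alternatives, with values from 4.58 to 5.26. From day 0 to day 2 the move was 3.43 ± 0.54 (adjusted p 0.047), with 0.0219% of all genes called. That call was lost in 11 of 16 alternatives, among them the replicate block (adjusted p 0.059, edgeR), the fits without HM1 replicate 1 (0.40), HM1 replicate 2 (0.70), line 1A4 (0.090), line 14 (0.25) or line 19 (0.13), and that without line 19 at day 2 (0.051). From day 2 to day 3 none of the 5 genes was called in the interaction by edgeR (0.0383% of all genes) or DESeq2, with Mixl1 and T at an unadjusted p below 0.05. Since the 2 contrasts with day 0 share the day 0 difference, they are not independent.

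In the controls, Mixl1 fell by 2.36 in the first step (adjusted p 1.3e-04, edgeR) and by 1.59 in the second (adjusted p 0.0079; 0.15 without HM1 replicate 1 and 0.084 without HM1 replicate 2). In the knockout lines the first step was 1.07 (adjusted p 0.052), and it was called with the replicate block (1.08, adjusted p 0.038) and without line 1A4 (1.08, adjusted p 0.024). All 3 knockout lines had a positive change in that step, 1.18 in line 14, 0.80 in line 19 and 1.00 in line 319, and all 3 control series a negative one. The raw counts behind these values were low, 7 and 32 in line 14, 14 and 8 in line 19, and 22 on both days in line 319. The depth fell between these days from 48.7 to 16.5 M gene counts in line 19 and from 52.2 to 23.1 M in line 319, while it rose in line 14 (33.4 to 51.7 M). The second step was -0.04 (adjusted p 0.94).

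**Figure D2:**
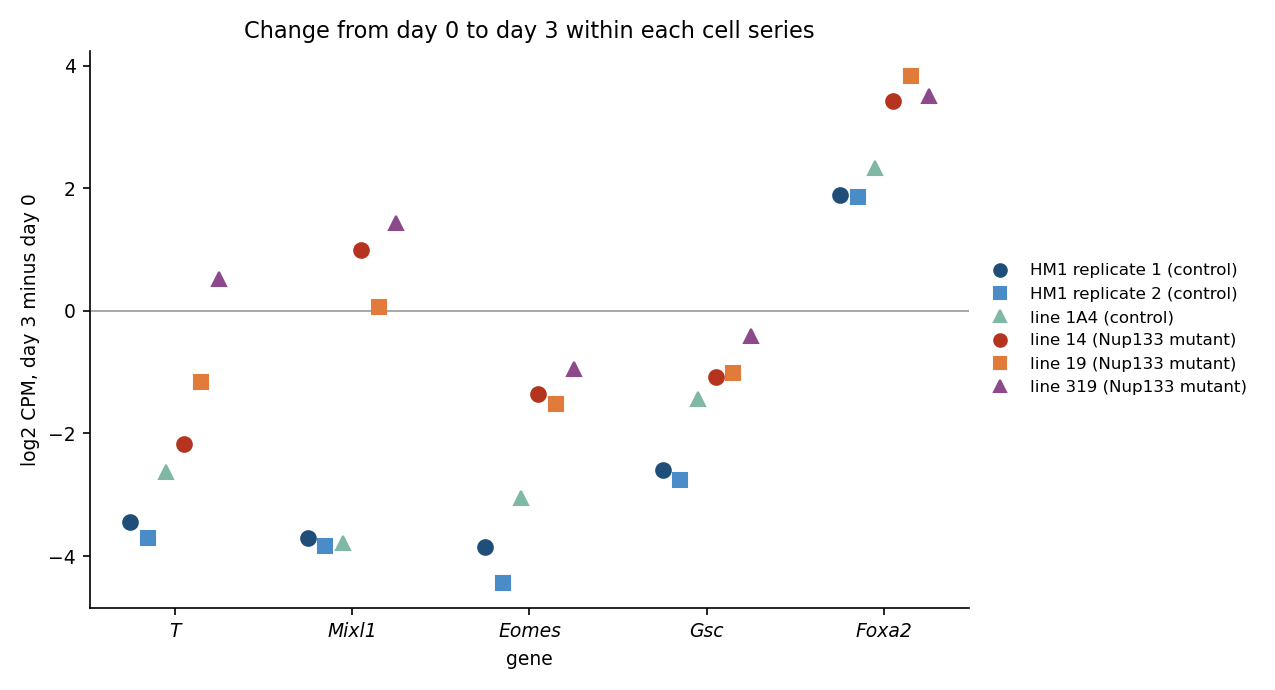
Change of log2 CPM from day 0 to day 3 within each of the 6 cell series, for the 5 genes. For Mixl1 the 3 control series lie between -3.83 and -3.71 and the 3 knockout series between 0.07 and 1.43, and in each of the 5 genes the knockout series lie above the control series.

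Gsc, goosecoid, is a homeodomain factor of the anterior streak and the organizer. The gene is on the minus strand of chromosome 12 (104471209 to 104473330), with 3 exons and 1268 bases in ENSMUST00000021513. Line 319 carries an extra chromosome 12, so that its copy number of Gsc differs from the other lines by the labels. The gene was near the limit of detection, with 6 to 73 counts per sample. None of the motifs searched was found in the 300 bases of its RefSeq promoter.

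At day 0 Gsc was at 1.40, 1.66 and 0.798 CPM in the controls and at 0.617, 0.744 and 1.49 CPM in lines 14, 19 and 319. The groups overlapped, and line 319 stood alone among the knockout lines in being above its control, by 0.86 on the log2 scale. At day 2 the controls held 0.921, 0.698 and 0.364 CPM and the knockout lines 0.247, 1.43 and 0.303 CPM, with line 19 highest on 19 counts. At day 3 the controls were at 0.188, 0.2004 and 0.260 CPM and the knockout lines at 0.264, 0.343 and 1.11 CPM. These last ranges did not overlap, but only by the small gap between line 1A4 and line 14, on 10 and 16 counts.

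The log2 fold changes of Gsc were -0.48 ± 0.62, -0.21 ± 0.68 and 1.347 ± 0.72 at days 0, 2 and 3, with adjusted p-values of 0.91, 0.90 and 0.30 (edgeR). Without line 319 the day 3 value was 0.19. Its steps in the controls were -0.98 and -1.61 (adjusted p 0.24 and 0.12), and in the knockout lines -0.705 and -0.06 (adjusted p 0.45 and 0.96). Without line 19 at day 2, the control step of -1.66 from day 2 to day 3 and the knockout step of -1.79 from day 0 to day 2 were called (adjusted p 0.039 and 0.037, edgeR). Between backgrounds the day 0 difference in knockout effect was 2.06 (adjusted p 0.42, edgeR). Without line 14 or 19 it was 1.94 and 2.20, in fits whose spread came from the HM1 replicates alone.

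Foxa2 is a forkhead factor of anterior streak, endoderm and axial mesoderm, and also of the floor plate. It spans 148042877 to 148046969 of chromosome 2, minus strand, with 3 exons and 2128 bases in ENSMUST00000047315. Of its 3 RefSeq promoters, the one at the start of this transcript and another held none of the motifs searched. The third starts inside the gene, 1505 bases from the start of this transcript. Its upstream bases (chr2:148045465-148045714, GRCm38.p6) held a SMAD word (GGCGCC, in 11.9% of promoters) at -147 to -142. A TCF/LEF word (CTTTGAT, in 3.73%) lay after that start, at 14 to 20, and so outside the upstream bases. At day 0 the HM1 replicates held 2.16 and 2.38 CPM and line 1A4 held 1.44 CPM. The knockout lines held 0.480, 0.325 and 0.632 CPM (lines 14, 19 and 319), all below the controls. The log2 fold change was -1.99 ± 0.39 (adjusted p 0.020, edgeR). It was called in 10 of 15 alternatives and lost without HM1 replicate 1 (-1.98, adjusted p 0.17), HM1 replicate 2 (-1.90, 0.25), line 14 (-1.93, 0.14) or line 19 (-1.68, 0.074), and in the fit of day 0 alone (-2.04, 0.060).

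Foxa2 was the one member whose steps between days were called higher in the fit without the replicate block, in the controls from day 2 and in the knockout lines from day 0. The positive first step of Mixl1 in the knockout lines, given above, was called in the fit with that block. At day 2 the controls held 3.53, 3.28 and 1.74 CPM and the knockout lines 1.65, 1.43 and 0.519 CPM, still without overlap (log2 fold change -1.23 ± 0.37, adjusted p 0.095, edgeR; 0.035 without line 319). At day 3 the controls held 8.18, 8.78 and 7.39 CPM and the knockout lines 5.67, 5.32 and 7.74 CPM. Line 319 had reached the control range, and the log2 fold change was -0.35 ± 0.34 (adjusted p 0.60; -0.76 and 0.044 without line 319).

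From day 2 to day 3 Foxa2 rose by 1.54 in the controls (adjusted p 0.0049, edgeR) and by 2.43 in the knockout lines (adjusted p 2.3e-04). The control call was lost without HM1 replicate 1 (adjusted p 0.055), HM1 replicate 2 (0.072) or line 1A4 (0.054), whereas the knockout call held in all 16 alternatives. The step from day 0 to day 2 was 0.50 in the controls (adjusted p 0.29) and 1.26 in the knockout lines (adjusted p 0.024). The latter was lost without line 14 (0.86, adjusted p 0.26), line 19 (0.91, 0.14), HM1 replicate 1 (1.26, 0.055) or HM1 replicate 2 (1.26, 0.054), and line 319 moved by -0.26 where lines 14 and 19 moved by 1.68 and 1.97. The difference between genotypes in these steps was 0.76 ± 0.53 and 0.89 ± 0.50 and was not called (adjusted p 0.79 and 0.58). Over both steps it was 1.65 ± 0.51 (adjusted p 0.20; 0.026 without line 319).

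Counted over the 5 genes, 3 were called lower in the controls from day 0 to day 2 (35.2% of all genes called) and 2 lower and 1 higher from day 2 to day 3 (21.4%). In the knockout lines 1 was called higher in the first step (35.9%), and 1 higher and 1 lower in the second (33.6%). With so many genes called, these counts tell little about the 5 genes as a group. For each of the 5, the day 0 to day 3 change was higher in every knockout series than in every control series, which was so for 12.2% of all genes. The median of the 5 day 0 to day 3 interactions was 2.54, beside 0.02 over all genes.

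**Figure D3:**
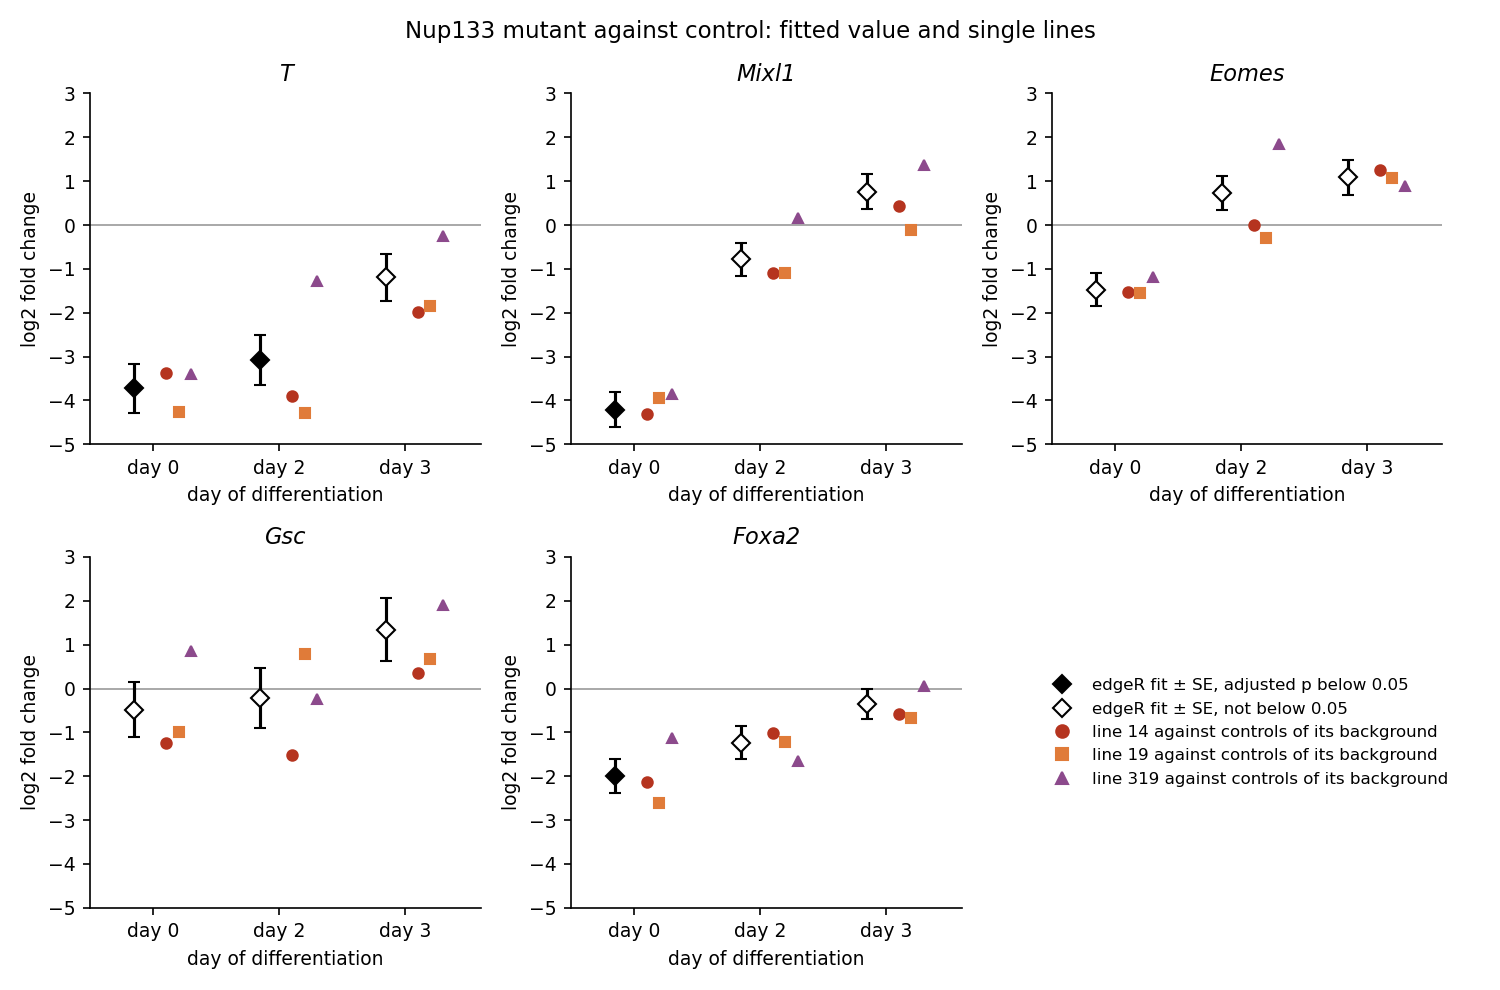
Knockout over control as a log2 fold change, by day, for the 5 genes; diamonds are the edgeR fit with its SE, filled at an adjusted p below 0.05, and coloured points set each knockout line against its own controls. Filled diamonds stand at day 0 for T, Mixl1 and Foxa2 and at day 2 for T, and line 319 lies above lines 14 and 19 for T at days 2 and 3.

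Levels can be compared between genes only per length of transcript. In CPM per kb the day 0 controls were ordered T (19.6), Eomes (7.45), Mixl1 (2.75), Gsc (1.01) and Foxa2 (0.936). The last 2 did not differ beyond their spread, with SDs of 0.348 and 0.232 CPM per kb. The day 0 knockout lines were ordered Eomes (2.70), T (1.49), Gsc (0.749), Foxa2 (0.225) and Mixl1 (0.147). In that order the ranges of Eomes and T, of T and Gsc, and of Foxa2 and Mixl1 overlapped. The last pair rests on 14 to 31 and 7 to 22 counts per sample. At day 3 Foxa2 led in both groups, at 3.82 ± 0.33 CPM per kb in the controls and 2.93 ± 0.61 in the knockout lines.

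Across the 6 groups, each gene had its own order of mean CPM. T was highest in the day 0 controls, followed by the day 2 controls (10.3) and the day 3 controls (3.85), without overlap between these 3. The day 3 controls and the 3 knockout groups of T overlapped with their neighbours in that order. Eomes was highest in the day 0 controls (26.5), and the day 3 controls (1.83) were lowest and apart from the day 3 knockout lines (3.90). Mixl1 was lowest in the day 0 knockout lines (0.338), which overlapped with the day 3 controls (0.409). Gsc groups overlapped with each neighbour except for the last, the day 3 controls. Foxa2 was highest at day 3 in both genotypes, whose ranges overlapped, and the day 3 knockout lines were above the day 2 controls without overlap.

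The genes most like each member were found over the 18 samples by the root mean square difference of log2 CPM after subtracting each gene's mean, among 14005 genes. T was nearest to Isg15 (0.65, where the median gene lay at 1.87), Trim67 (0.82) and Ifih1 (0.85). Eomes was nearest to Ovol1 (0.57, median 1.33), Tek (0.59) and Ifitm1 (0.62), and Mixl1 to Tns4 (0.72, median 1.47), Iigp1 (0.73) and Sprr2a3 (0.73). The 3 genes nearest to Gsc were Dio3 (0.55, median 1.10), Gtf2f1 (0.59) and Rps4l (0.60), and those nearest to Foxa2 were Serpinh1 (0.48, median 1.49), Igf2 (0.52) and Col23a1 (0.52). No member was among the 3 nearest of another. Among the genes ranked by closeness to Mixl1, T was number 62, at 1.13. Gsc and Mixl1 were numbers 1291 and 2344 for Eomes, at 1.00 and 1.07, and the former distance is near the median of Gsc to all genes. Foxa2 lay at 1.97 or more from each of the others. The samples share lines and days, so these distances are a description.

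The signals that act upstream of these factors were read from a list of 8 genes (Nodal, its coreceptor Tdgf1, Wnt3, Wnt3a, Wnt8a, Bmp4, Fgf4 and Fgf8). This list and those below were chosen with earlier results of these data known, so their counts are a description. Over all tested genes, 0.854%, 1.6% and 5.2% were called in either direction at days 0, 2 and 3. The median log2 fold changes over all genes were 0.01, 0.02 and 0.02. At day 0, 2 of the 8 were called lower and none higher, with a median log2 fold change of -0.77. Wnt3, a ligand needed to form the streak, was at 7.20, 10.2 and 6.66 CPM in the controls and at 0.891, 0.674 and 1.06 CPM in lines 14, 19 and 319. Its groups were far apart (-3.33 ± 0.67, adjusted p 0.025, edgeR), though the call was lost without HM1 replicate 1 (adjusted p 0.12), HM1 replicate 2 (0.29), line 14 (0.11) or line 19 (0.070). Fgf8, which cells need to leave the streak, was at 6.52, 10.4 and 3.75 CPM against 0.926, 0.604 and 0.530 CPM (-3.30 ± 0.56, adjusted p 0.0084; 0.12 without HM1 replicate 2, 0.100 without line 14 and 0.052 without line 19).

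At day 2 none of the 8 signals was called by edgeR or DESeq2 (1 had an unadjusted p below 0.05), with a median of 0.16, and at day 3 Tdgf1 alone was (lower). Line 319 stood apart at day 2, with 324 CPM of Tdgf1 (46.5 to 115 in the other samples), 185 CPM of Nodal (24.3 to 31.9 in the controls) and 9.60 CPM of Wnt3 (2.69 to 4.54 in the controls). In the comparison between backgrounds at day 2 all 8 signals had a positive difference, with a median of 2.76 beside -0.04 over all genes. That comparison rests on 1 line of each genotype in the blastocyst-derived background, as for Eomes. Tdgf1 had been near 500 CPM at day 0 in both groups (499.9 ± 44.9 and 549.6 ± 63.0 CPM, SD, n = 3), and its day 0 log2 fold change was 0.15 ± 0.60 (adjusted p 0.99). At day 3 it was at 16.3, 24.3 and 15.9 CPM in the controls and 2.165, 0.549 and 9.34 CPM in the knockout lines (-2.55 ± 0.68, adjusted p 0.041). The call was lost without HM1 replicate 1 (adjusted p 0.16), HM1 replicate 2 (0.22), line 14 (0.19) or line 19 (0.078).

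Of 14 other transcription factors of streak and mesoderm, 13 were tested. At day 0, 2 were called lower and none higher, with a median of -0.86. Lhx1, a LIM homeodomain factor of the anterior streak that is also used in neural cells, was at 5.64, 14.4 and 6.22 CPM in the controls and at 0.240, 0.186 and 0.184 CPM in the knockout lines (-5.53 ± 0.60, adjusted p 2.8e-04, edgeR). The other was Msgn1, a bHLH factor of presomitic mesoderm, which stayed below 1 CPM in every sample. At day 2 Lhx1 alone was called, again lower, at 4.88, 5.65 and 4.87 CPM against 0.285, 0.000 and 0.475 CPM (-4.20 ± 0.59, adjusted p 0.0031, but 0.24 in the fit of day 2 alone).

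At day 3 the mesoderm list had 2 genes called higher and none lower, with a median of 0.54, or 0.47 with genes at 3 counts or fewer set to their bound. Lhx1 had turned round, at 6.49, 5.11 and 15.5 CPM in the controls and 24.6, 34.1 and 68.1 CPM in the knockout lines (2.24 ± 0.46, adjusted p 0.013; 0.13 and 0.083 without HM1 replicate 1 or 2). Cdx2, a caudal factor of posterior streak and trophectoderm, was called on line 319 alone, at 19.7 CPM where lines 14 and 19 had 0.744 and 0.515 CPM and the controls 0.242, 0.301 and 0.911 CPM. Without line 319 its value fell from 3.26 to 0.68 on the log2 scale (adjusted p 0.39), and the call was also lost without any 1 of the control series (adjusted p from 0.22 to 0.24) and with the replicate block (2.53, adjusted p 0.12, limma).

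Secreted antagonists of Nodal, Wnt and BMP that anterior mesendoderm and node make were read from 8 genes. At day 0, 2 were called lower (median -1.11). Frzb, a Wnt antagonist, was at 2.08, 1.75 and 0.838 CPM in the controls and at 0.274, 0.256 and 0.224 CPM in the knockout lines (-2.57 ± 0.40, adjusted p 0.0053, edgeR; 0.066, 0.071 and 0.078 without HM1 replicate 1, HM1 replicate 2 or line 14). Cer1, an antagonist of Nodal, had no count in any day 0 knockout sample and 0.338 to 0.865 CPM in the controls. Against 3 counts per sample, it was at least 8.22-fold lower. The bound covers counting error only.

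At day 2, 4 of the 8 antagonists were called lower and none higher (median -1.26), beside 1.6% of all genes called and a median of 0.02 over all genes. Cer1 was at 5.46, 5.23 and 2.404 CPM in the controls and at 0.133, 0.075 and 0.043 CPM in lines 14, 19 and 319 (-5.46 ± 0.51, adjusted p 3.1e-04; 0.059 in the fit of day 2 alone). Nog, which binds BMPs, was at 2.05, 2.51 and 1.41 CPM against 0.019, 0.000 and 0.389 CPM (-3.99 ± 0.79, adjusted p 0.021; between 0.050 and 0.16 without HM1 replicate 1, HM1 replicate 2, line 14 or line 19, and 0.40 in the fit of day 2 alone). Dkk1 (-3.27) and Frzb (-1.75), both called at an adjusted p of 0.035, were the other two. At day 3 Frzb was called higher and none of the 8 lower (median -0.32). Its level was 2.64, 1.87 and 2.73 CPM in the controls and 10.7, 16.5 and 6.42 CPM in the knockout lines (2.10 ± 0.34, adjusted p 0.0047; 0.084 and 0.096 without HM1 replicate 1 or 2).

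Among 11 endoderm, node and notochord genes none was called by edgeR or DESeq2 at day 0 (3 had an unadjusted p below 0.05), with a median of -0.47 (-0.43 with bounds). At day 2, 2 were called lower and none higher (median -0.24), Shh and Noto. Shh, the signal that node, notochord and floor plate secrete, was at 2.20, 2.37 and 0.748 CPM in the controls and at 2 counts or fewer in each knockout sample, which makes it at least 12.9-fold lower. Noto, a notochord homeobox gene, was at least 3.86-fold lower, from a control mean of 0.532 CPM. The Shh call, too, was lost in the fit of day 2 alone (adjusted p 0.19), which called 0 of all genes, so that the calls of Dkk1, Frzb and Noto were not made there either.

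At day 3 Shh was still lower, at 1.59, 2.07 and 0.807 CPM against 0.281, 0.103 and 0.129 CPM (-2.99 ± 0.46, adjusted p 0.0032, edgeR; 0.066 without HM1 replicate 2). Gata4, an endoderm GATA factor, was higher, at 3.26, 3.54 and 6.01 CPM against 9.57, 8.45 and 14.5 CPM (1.36 ± 0.31, adjusted p 0.023). The Gata4 call was lost without HM1 replicate 1 (0.12), HM1 replicate 2 (0.099), line 1A4 (0.080) or line 14 (0.062). Foxa1, a paralogue of Foxa2, was the other gene called higher (1.26, adjusted p 0.045). The list median was 0.20, or 0.00 with bounds.

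**Figure D4:**
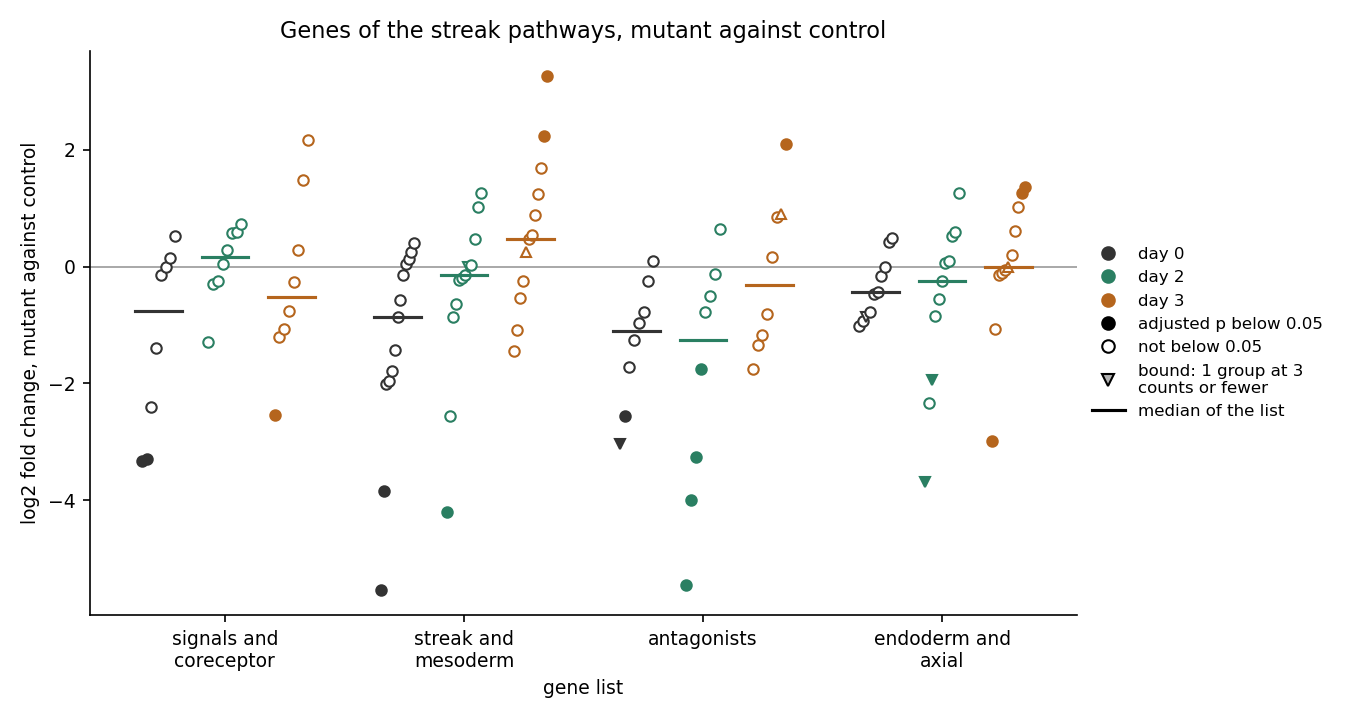
Log2 fold change of the knockout against the control for each tested gene of 4 lists at days 0, 2 and 3, with the list median as a bar; filled points have an adjusted p below 0.05, triangles are bounds for genes at 3 counts or fewer in 1 group, and genes at 3 counts or fewer in both groups are not drawn. Filled points lie below 0 at days 0 and 2, and at day 3 they lie on both sides.

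Markers of other cell types that could be in the cultures were summed beside these results. For 12 fibroblast genes, the day 0 sums were 370, 320.5 and 167 CPM in the controls and 248, 137 and 215 CPM in the knockout lines. The groups overlapped, none of the 11 tested was called by edgeR at day 0 (1 by DESeq2, 4 at an unadjusted p below 0.05), 10 of the 11 were lower in direction, with a median of -0.29, and none was at 0 counts in any day 0 sample. At day 2 the sums were apart (144 to 199 against 99.4 to 134 CPM), with Postn and Acta2 called lower at both later days, and at day 3 the sums overlapped. Acta2 alone was at 28.6 to 66.3 CPM in the day 2 controls and 2.12 to 8.60 CPM in the day 2 knockout lines. Of the 11 tested, 6 were higher in direction at day 2 (median 0.19) and 5 at day 3 (median -0.07), with none called higher. For 12 primitive endoderm genes the day 0 sums overlapped (174 to 241 against 174 to 263 CPM), as did the day 3 sums (281 to 322.5 against 247 to 547 CPM), while the day 2 sums did not (120 to 123 against 67.7 to 119 CPM). The largest part of the day 2 sums was Col4a1 (80.1 to 83.5 against 32.0 to 70.6 CPM). Of the 10 tested, 7 were higher in direction at day 2, with a median of 0.16, and 7 at day 3, with a median of 0.39. At day 2, 1 was called higher and none lower (edgeR, 1.6% of all genes called). At day 3, 2 were called higher and none lower (5.2%). For 7 floor plate genes the day 3 sums were 41.2 to 55.0 CPM in the controls and 61.2 to 63.8 CPM in the knockout lines, while Shh itself was lower there. Their largest part was Ntn1 (24.4 to 35.0 against 33.6 to 44.8 CPM), which was higher at day 0 (95.1 to 132 against 85.6 to 125 CPM). Of the 6 tested at day 3, 1 was called higher and 1 lower (edgeR, 5.2% of all genes called). In direction 4 were higher and 2 lower, with a median of 0.23. The part of these cell types in the levels of the 5 factors was not tested.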

How the data were processed

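Messenger RNA of 18 samples, each sequenced as 4 technical replicates from stranded TruSeq libraries, was deposited by the authors as raw counts per Ensembl transcript. The submitters' processing notes name STAR 2.4.0k, HTSeq, SAMtools, bcl2fastq 2.17.1.14 and the mouse build mm10. Whether the counting used strand is not given in the sources used here. Transcripts were matched to GENCODE M21 (GRCm38), 108214 of 110379 identifiers, and identifiers without a match, with 1.44% to 2.48% of the counts, were not used. A read counts for each transcript it overlaps, so 1 transcript stood for each gene. Technical replicates were added up.

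The test was edgeR 4.0.16 in R 4.3.3 (limma 3.58.1 for the random block): TMM scaling, filterByExpr (18273 genes), a robust quasi-likelihood fit of all 18 samples with 6 groups and a term for background (HM1-derived or blastocyst-derived), 11 residual degrees of freedom and a common biological coefficient of variation of 0.246. The difference between backgrounds used 12 groups (6 degrees of freedom). P-values were adjusted by Benjamini-Hochberg over all genes, and a call is an adjusted p below 0.05. Values of single lines are log2 CPM with a prior count of 2. Bounds use 3 counts per sample. The procedure was run on simulated counts drawn independently for each sample. Those held no effect of line, background or pairing, so they cannot show the error rate in data that do. Alternatives were DESeq2 1.42.0, no filter, no background term, other transcripts, subsets of days or lines, each series left out, and the cell series as a replicate block.

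Samples of a series come from the same line on 3 days, which pairs them; their deviations from the group means correlated above 0.1 in 16 of 18 pairs. The 5 genes and the lists were chosen with earlier results of these data known. Genes of the lists are named when they are the 2 called with the largest change per list and day at 1 CPM or more in the higher group. Msgn1, Noto, Nodal, Dkk1, Foxa1, Postn, Acta2, Col4a1 and Ntn1 were named after their values were seen. Lhx1, Cer1 and Shh are named wherever lists are described. RefSeq promoters (GRCm38.p6) were found for 4 of the 5 genes and searched on both strands for the TCF/LEF words CTTTGAA and CTTTGAT, FOXH1 (AATNCACA), SMAD (GTCTAGAC and GGCGCC), T-box (AGGTGTGA), bicoid-type (TAATCC), paired-type homeodomain, forkhead (TGTTTAC) and a retinoic acid response element.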

Additional observations from a re-analysis of the deposited data

Results flagged for a closer look

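Mixl1 differed between days in its response to the loss of Nup133. Its log2 difference between knockout and control moved by 4.97 from day 0 to day 3 and by 3.43 from day 0 to day 2 (interaction tests of edgeR, adjusted p 5.2e-04 and 0.047). The 2 values share the day 0 samples. Eomes differed between the backgrounds at day 2, where the knockout effect in line 319 exceeded that in lines 14 and 19 by 2.00 on the log2 scale (adjusted p 0.040, edgeR). Line 319 is the only knockout line of its background, and it also differs from the others in its Nup133 allele, sex chromosomes and extra chromosomes, which cannot be told apart. Its library at day 2 held 23.1 M gene counts.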

How the results depend on the processing

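Mixl1 at day 0, its change of genotype difference from day 0 to day 3, and the last knockout steps of Eomes and Foxa2 were called in every alternative run. Counts of the 5 genes called moved more, and the number of all tested genes called is given beside them in brackets. For the steps between days, so many genes were called that these counts tell little about the 5. Leaving out 1 series at a time gave 1 to 4 genes for knockout against control at day 0 (18 to 406), 0 to 2 at day 2 (22 to 1374) and 0 to 3 at day 3 (17 to 2019). It gave 0 to 4 for the second control step (1215 to 6362) and 0 to 3 for the first knockout step (3813 to 7718). For the interactions from day 0 to days 2 and 3 it gave 0 to 1 (0 to 10) and 1 to 3 (6 to 401). In fits that left out line 14 or 19, the difference between backgrounds rested on the spread of the HM1 replicates, so no such counts are given for it. DESeq2 called 2 genes at day 2 (1400) and 3 in the first knockout step (7285). It called 2 and 4 in the interactions from day 0 (76 and 448), and 2 between backgrounds at day 2 (622). With HM1-derived lines only, 2 were called at day 2 (245), 2 at day 3 (1121) and 4 in the first knockout step (6993). In the interactions from day 0 these lines gave 0 and 3 (0 and 143). Fits of the compared days alone gave 0 at day 2 (0), 1 at day 3 (2546), and 0 and 2 in those interactions (0 and 127). Without line 19 at day 2 the counts were 1 at day 3 (3007), 5 in the second control step (6138) and 2 in the first knockout step (7345). They were 0 and 2 in the interactions from day 0 (4 and 268). Samples of a series are paired. With that pairing as a fixed replicate block, 3 genes were called in the first knockout step (6467) and 0 in the interaction to day 2 (1). Summed transcripts gave 2 and 0 there (6460 and 4), and 0 between backgrounds at day 2 (61). The longest transcript gave 2 in the first knockout step (6432). Without a background term the interaction to day 2 called 0 (2). With no filter the interaction to day 3 called 2 (131), and the backgrounds differed for 2 genes at day 2 (1039) and 1 at day 3 (465).

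Signs turned for values near 0 and for those that line 319 or line 19 decides. Eomes at day 2 was -0.13 with HM1-derived lines only and between -0.15 and 1.08 with 1 series left out. Its first knockout step was -0.74 with HM1-derived lines only, -0.016 with a random replicate block and between -0.74 and 0.61 with 1 series left out, and its interaction from day 2 to day 3 was -0.0078 without line 19 at day 2. The last knockout step of Mixl1 was 0.0081 without a background term and -0.42 to 0.18 with 1 series left out. T had an interaction to day 2 of -0.31 with HM1-derived lines only and of -0.27 to 1.38 with 1 series left out, and a difference between backgrounds at day 0 of -0.012 to 0.88. Gsc, on 6 to 73 counts, ranged from -1.33 to 0.32 at day 2, from -1.92 to 0.0003 in the first knockout step, from -1.19 to 1.22 in the last, from -0.96 to 0.96 in the interaction to day 2 and from -1.08 to 1.45 between backgrounds at day 2. Its last knockout step was 0.16 with a random replicate block and 1.01 without line 19 at day 2, its interaction -0.093 and -0.83, and its background difference -0.16 with DESeq2 and -0.10 with summed transcripts. The cause of these turns was not tested.

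Over all genes, knockout against control called 156 (18 to 556 over the alternatives) at day 0, 292 (0 to 1400) at day 2 and 951 (17 to 3007) at day 3. The control steps called 6438 (2833 to 8904) and 3918 (1215 to 6362), the knockout steps 6561 (3813 to 7718) and 6141 (4340 to 7583), the interactions to days 2 and 3 from day 0 4 (0 to 76) and 78 (6 to 448), that from day 2 to day 3 7 (1 without line 14, 117 with DESeq2 and more without line 319), and the backgrounds 177 (0 to 4084), 100 (0 to 8919) and 4 (0 to 3414). With DESeq2 the share called lower at day 2 was 43.6% in place of 60.3%, between backgrounds at day 2 it was 40.8% in place of 20.0%, and in the 3 interactions it was 22.4%, 40.2% and 21.0% in place of 0%, 28.6% and 7.69%.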
